A study of Mus musculus with 12 samples.

Results

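Small RNAs of CD4 T cells lacking Dicer were compared with those of CD4 T cells lacking Drosha, 1 library of each, the pair being 2 of the 12 libraries of a mouse series. Both came from cells sorted from spleen and lymph nodes of C57BL/6 backcrossed mice aged 6 to 7 weeks. The first library was from Dicer CD4-cre mice and the second from Drosha CD4-cre mice; CD4 T cells of CD4-cre mice, which carry the Cre alone, gave a control library. The CD4-cre transgene expresses Cre from Cd4 regulatory elements, which are active in the thymus before the CD4 and CD8 lineages part, so T cells of both lineages carry the deletion, and cells that escape it can persist. The series title calls the cells activated, while the sample labels say only CD4+ T cell. Adaptors were joined to RNA of 19 to 30 nt bearing a phosphate at its 5′ end and a hydroxyl at its 3′ end, as RNase III cleavage leaves them. Ratios of the same kind were read from 3 other cell types: CD4+CD25+ regulatory T cells of Dicer CD4-cre and Drosha CD4-cre mice, DN3 thymocytes of Dicer Lck-cre and Drosha Lck-cre mice, and embryonic fibroblasts (MEF) derived from E14.5 Dicer Rosa26-CreER and Drosha Rosa26-CreER embryos, 1 library each. The labels give the same age of 6 to 7 weeks for the CD4 control, regulatory T cell and DN3 libraries.

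A canonical miRNA is cut from its primary transcript by Drosha in the nucleus as a hairpin and trimmed by Dicer in the cytoplasm to a duplex, of which 1 strand is kept by Argonaute. Some hairpins reach Dicer without Drosha: mirtrons are introns released by splicing, and a few short hairpins, miR-320 and miR-484 among them, are transcribed directly in the form that Dicer takes. Fragments of tRNA, rRNA and snoRNA have also been entered in miRNA databases, and some of these need neither enzyme. In T cells, miR-155, miR-21 and miR-146a are known for their induction on activation, and miR-181a for tuning the sensitivity of the T cell receptor during development.

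The members are the miRNA entries of the Dicer and Drosha lists, each a mature miRNA name with a normalised whole number, referred to here as its value. The Dicer list held 97 entries and the Drosha list 85, which made 111 in all. Of these, 71 stood in both, 26 in the Dicer list only and 14 in the Drosha list only. The lowest value was 645 in the Dicer list and 526 in the Drosha list, each worth 4 implied reads, so a missing entry was below that floor and not necessarily at 0. The lists rest on about 5528 implied reads for Dicer and 6926 for Drosha, whereas the control list goes down to 20. With 1 library a side there is no spread between samples and no test. Intervals are 95% exact (Clopper-Pearson) intervals of the ratio of implied reads and cover counting error only. An entry is counted as lower or higher when the 2 values differ at least 2-fold.

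The mature sequences that carry the comparison are given 5′ to 3′ from RefSeq (GRCm38.p6), with the seed, bases 2 to 8, in capitals. The first set holds some of the entries that stood lower in the Dicer list or were missing from it. miR-484 is a short hairpin, miR-877* comes from a mirtron, and miR-702 is counted with the mirtrons although its hairpin overlaps an annotated exon. miR-1983 is related to a tRNA and miR-1839-5p to a small nucleolar RNA. The 3 members of the miR-181 family share the seed ACAUUCA.
miR-484: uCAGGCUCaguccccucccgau
miR-877*: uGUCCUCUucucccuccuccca
miR-702: uGCCCACCcuuuaccccgcucc
miR-1983: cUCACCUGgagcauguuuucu
miR-1839-5p: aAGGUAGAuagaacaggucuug
miR-181a: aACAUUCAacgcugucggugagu
miR-181b: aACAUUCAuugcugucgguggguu
miR-181c: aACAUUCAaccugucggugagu

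The second set holds entries from among the 12 highest ratios of Dicer over Drosha. miR-146a is printed beside miR-146b, which has the same seed. The ratio of miR-146b was nearer to equal as deposited, but rests on 5 implied reads in Dicer and 6 in Drosha.
miR-7a: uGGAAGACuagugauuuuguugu
miR-155: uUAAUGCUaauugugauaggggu
miR-21: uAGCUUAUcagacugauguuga
miR-146a: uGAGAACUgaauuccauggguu
miR-146b: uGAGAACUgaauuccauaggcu
miR-674: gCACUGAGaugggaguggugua

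The T cell identity of both libraries was checked first. Of 16 T lymphocyte miRNAs, 14 were listed in Dicer and 14 in Drosha, miR-142, miR-150 and miR-155 among them, and they took 15.9% of the Dicer values, 7.52% of the Drosha values and 15.2% of the control values. No erythroid, endothelial or epithelial miRNA of the lists used was present in either library. Of 5 myeloid miRNAs, only miR-24, which is not restricted to myeloid cells, was listed, at 1613 in Dicer and 921 in Drosha; miR-223 was in neither list. Of 12 miRNAs of fibroblasts, 3 were listed in Dicer and 2 in Drosha, nearly all of it miR-22, which is not restricted to fibroblasts. miR-22 alone took 14.3% of the Dicer values, 6.84% of the Drosha values and 15.2% of the control values, close to the T lymphocyte shares. The T lymphocyte list also holds miRNAs present in fibroblasts, such as miR-21, at 8492 in MEF Dicer and 6034 in MEF Drosha. miR-150 had no value in either. The shares of the lists therefore do not separate T cells from fibroblasts. Fewer cells of a type and less RNA per cell cannot be told apart in such libraries, and the lists of small RNAs do not measure the Dicer or Drosha transcript, so how completely each gene was lost is not shown by them.

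The libraries differed most in how their values were divided between kinds of entry. The 4 lists used here set apart entries that may not be canonical: short hairpins and mirtrons, tRNA-related entries, snoRNA-related entries and entries of unsettled origin. Entries outside these special lists took 53.2% of the Dicer values (interval 51.7 to 54.4%), against 23.6% of the Drosha values (22.7 to 24.7%); in the control library they took 91.9%. Short hairpins and mirtrons took 0.650% of the Dicer values (0.457 to 0.900%) and 25.7% of the Drosha values (24.7 to 26.8%), with 3.25% in control. tRNA-related entries took 10.3% in Dicer and 6.18% in Drosha, against 1.39% in control. Both deletion libraries thus held a larger share of tRNA-related entries than control, and only the Drosha library held a larger share of short hairpins and mirtrons.

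Entries of unsettled origin, for which the names alone do not settle what RNA they come from, took 35.8% in Dicer, 44.2% in Drosha and 3.39% in control. miR-689 made up most of this, with values of 269194 in Dicer, 344342 in Drosha and 30690 in control. It was the most abundant entry of both deletion libraries. The 3 most abundant entries took 50.8% of the Dicer values and 62.9% of the Drosha values, against 31.2% in control. In Dicer these were miR-689, miR-22 and miR-1937a, and in Drosha miR-689, miR-320 and miR-484.

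**Figure D1:**
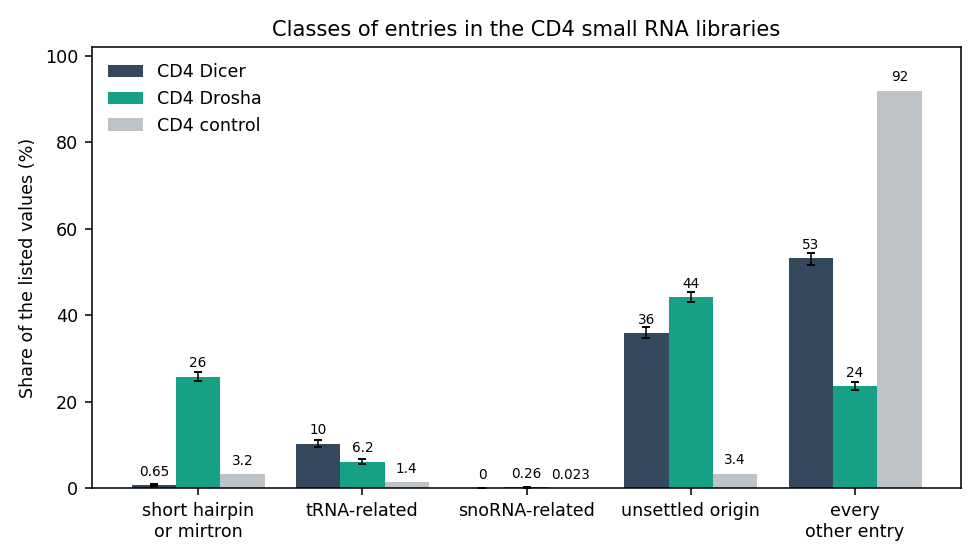
Share of the listed values (%) taken by 5 kinds of entry in the CD4 Dicer, CD4 Drosha and CD4 control libraries, 1 library each. Error bars on Dicer and Drosha are 95% exact intervals from implied reads; short hairpins and mirtrons reach 25.7% only in Drosha, and the remaining entries take 53.2% in Dicer, 23.6% in Drosha and 91.9% in control.

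Since the values of a library sum to nearly a fixed total, a large share for some entries leaves less for the others. The median entry listed in both libraries had a log2 ratio of Dicer over Drosha of 0.92, a value 1.90-fold higher in Dicer, with quartiles of 0.33 and 1.48. As deposited, 5 of the 71 entries were at least 2-fold lower in Dicer (7.04%) and 33 at least 2-fold higher (46.5%). Relative to the median entry, 12 were lower (16.9%) and 9 higher (12.7%). The entries nearest the limit were miR-22, at 1.03 just inside, and let-7b, at 0.99 just outside on the higher side, and miR-181a, at -1.02 inside, and miR-1940, at -0.71 outside on the lower side.

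Most entries outside the special lists that were listed in both libraries differed little in proportion to each other. Such entries numbered 80 in Dicer and 63 in Drosha, and those listed in 1 library only are not covered by this. With each value taken as a share of these entries alone, a scaling added after the data were seen, the median log2 ratio of the 54 such entries listed in both was 0.00. Of the 54, 43 differed less than 2-fold, 6 were lower in Dicer and 5 higher. miR-22 took 26.8% of these entries in Dicer and 28.9% in Drosha, miR-191 5.53% and 5.62%, and let-7g 1.17% and 1.22%. The 6 lower were the 3 miR-181 members, miR-1940, miR-146b and let-7f, and the 5 higher were miR-7a, miR-155, miR-21, miR-674 and miR-185. No interval was computed on this scale. Of the lower entries, all but miR-181a rest on 4 to 8 implied reads in each library, and their intervals as deposited include equal levels. miR-7a, miR-674 and miR-185 rest on 4 or 5 implied reads in Drosha.

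**Figure D2:**
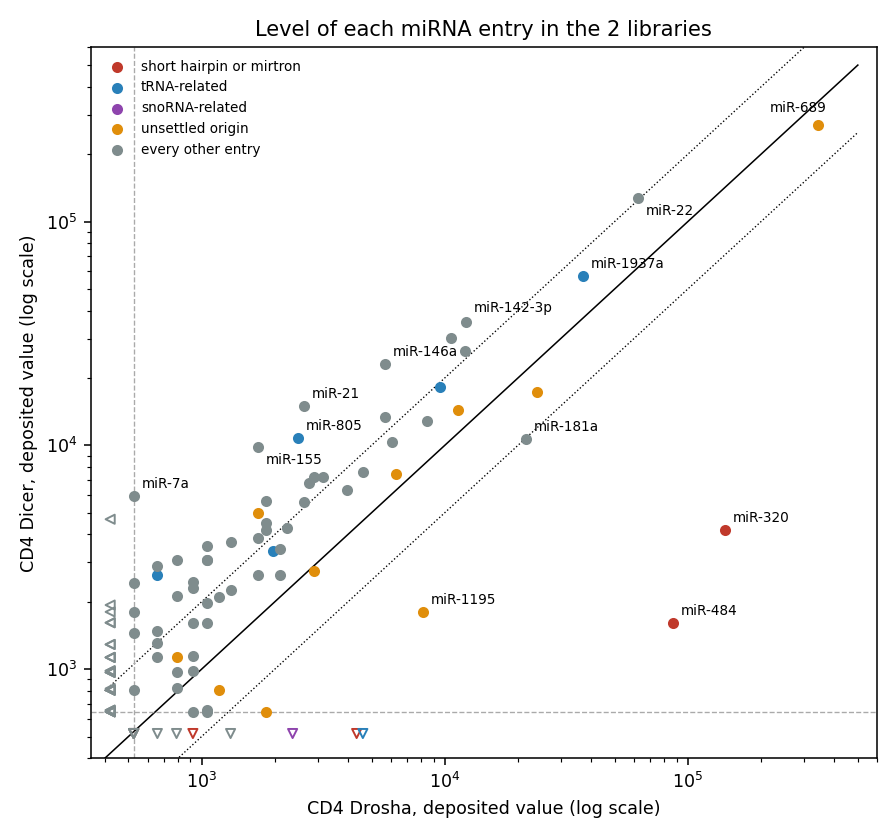
Deposited value of each entry in the CD4 Dicer library (y axis, log scale) against the CD4 Drosha library (x axis, log scale), coloured by kind of entry. The solid line marks equal values, dotted lines 2-fold differences, dashed lines the floors of 645 and 526, and open triangles entries listed in 1 library only, drawn outside the floor of the other; miR-320 and miR-484 lie far below the line and most other entries above it.

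The short hairpins miR-484 and miR-320 had the lowest ratios among the entries listed in both. miR-484 had a value of 1613 in Dicer and 87105 in Drosha, with 3670 in control. These are 10 and 662 implied reads, a 54.0-fold lower level in Dicer (interval 29.2 to 113). Its hairpin lies at chromosome 16, 14159626 to 14159692, opposite an exon of Marf1. miR-320 had 4194 in Dicer and 141711 in Drosha, with 28580 in control, and was 33.8-fold lower in Dicer (22.9 to 52.0). Relative to control, the Dicer value of miR-484 was 0.440-fold and that of miR-320 0.147-fold, and the Drosha values were 23.7-fold and 4.96-fold. Both Dicer values thus lay below control and both Drosha values above it.

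Entries counted as mirtrons were listed in Drosha only. miR-877*, the 3′ strand of a hairpin in an intron of Abcf1 (chromosome 17, 35960730 to 35960814), had a value of 4342 in Drosha, or 33 implied reads, and 250 in control. Set against the Dicer floor of 645, this is at least 6.73-fold lower in Dicer. Its partner miR-877 had 526 in Drosha and 20 in control, below the Dicer floor, so no fold can be given. miR-702, whose hairpin overlaps an exon of Plod3 on the same strand (chromosome 5, 136991433 to 136991541), had 921 in Drosha and 50 in control and was at least 1.43-fold lower in Dicer. miR-1224 and miR-1981 were listed in neither library.

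The miR-181 family was lower in Dicer in each of its 3 listed members. miR-181a had 10656 in Dicer and 21579 in Drosha, with 3130 in control. It was 2.03-fold lower in Dicer (interval 1.51 to 2.74), on 65 and 164 implied reads. miR-181b had 656 in Dicer and 1053 in Drosha, and miR-181c had 645 and 921. These rest on 4 to 8 implied reads, and their intervals span equal levels. miR-181c stood at 5240 in control, above both deletion libraries, whereas miR-181a and miR-181b, at 310, stood below both. The family median of -0.68 compares with 0.92 over all entries listed in both, and 3 of 3 members were more than 2-fold below that median, against 16.9% of all entries.

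Entries of unsettled origin were mixed, with 6 of 10 at a negative log2 ratio, against 12 of all 71 entries, and a median of -0.22. miR-1195 had 1803 in Dicer and 8158 in Drosha, with 120 in control, and was 4.52-fold lower in Dicer (2.36 to 9.53). miR-715 had 645 and 1842, a 2.86-fold lower level on 4 and 14 implied reads, with an interval that includes equal levels (0.897 to 11.9). miR-709 had 17258 and 23947, and was 1.39-fold lower (1.09 to 1.78), close to the 1.28-fold of miR-689 (1.20 to 1.36). Intervals of these 4 entries excluded equal levels except for miR-715.

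The remaining entries of this kind differed little or in the other direction. miR-677 had 2742 in Dicer and 2895 in Drosha, miR-714 had 7419 and 6316, and miR-1959 had 14355 and 11316. miR-712 had 1129 and 789, while miR-712* had 806 and 1184. miR-690 was the only one at least 2-fold higher in Dicer, with 5000 against 1711 in Drosha, a ratio of 2.92 (1.49 to 6.09). All 10 stood above control in both deletion libraries, where miR-677 had 40, miR-714 had 1260, miR-1959 had 190 and miR-690 had 90.

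As deposited, tRNA-related entries were higher in Dicer in all 5 members listed in both, but their median log2 ratio of 0.92 equals that of all entries, and it was -0.22 when values were scaled to the entries outside the special lists. miR-1937a had 57258 in Dicer and 36974 in Drosha, with 6740 in control, a ratio of 1.55 (1.32 to 1.82). miR-1937b had 18226 and 9605, with 40 in control, a ratio of 1.90 (1.40 to 2.58). These values may share reads, since the names differ only in a letter and near-identical copies cannot be told apart in the lists. miR-720 had 3387 in Dicer and 1974 in Drosha, with 30 in control.

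The remaining tRNA-related entries stood farther apart. miR-805 had 10806 in Dicer and 2500 in Drosha, with 6800 in control, and was 4.32-fold higher in Dicer (2.57 to 7.62). miR-1274a had 2623 and 658, with 90 in control, 3.99-fold higher on 16 and 5 implied reads (1.40 to 13.9). In the opposite direction, miR-1983 was listed in Drosha only, at 4605 against 200 in control, and was at least 7.14-fold lower in Dicer. The snoRNA-related miR-1839-5p, whose hairpin overlaps an annotated small Cajal body RNA (chromosome 7, 81529916 to 81529988), was likewise listed in Drosha only, at 2368 against 230 in control, at least 3.67-fold lower in Dicer.

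**Figure D3:**
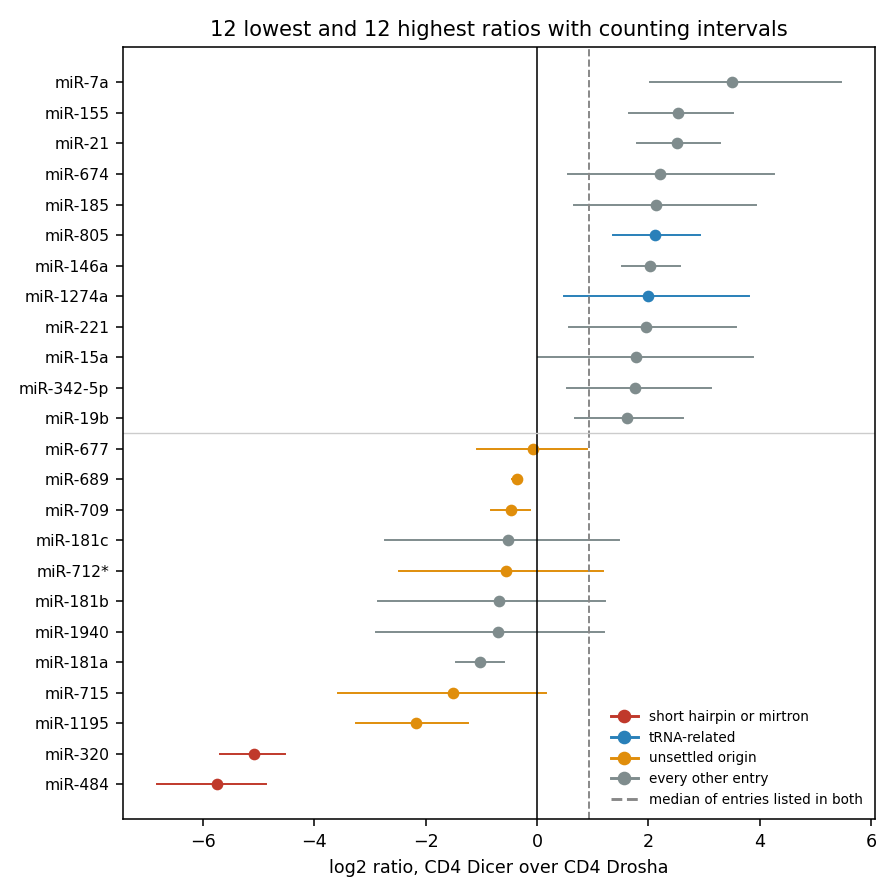
The 12 lowest and 12 highest log2 ratios of CD4 Dicer over CD4 Drosha among the 71 entries listed in both (points), with 95% exact counting intervals (lines); the dashed line is the median of 0.92. miR-484 and miR-320 stand apart at the bottom, at -5.75 and -5.08, and miR-7a leads at the top, at 3.50.

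Among the entries higher in Dicer, miR-7a stood first. It had 5968 in Dicer and 526 in Drosha, with 12260 in control, and was 11.3-fold higher in Dicer (interval 4.07 to 43.8) on 37 and 4 implied reads. The Drosha value is the floor of its list. miR-7a has 2 gene copies in RefSeq, of which Mir7-1 lies in an intron of Hnrnpk (chromosome 13, 58392779 to 58392886) and Mir7-2 outside the genes annotated.

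miRNAs of activated T cells followed. Of 13 on the list, 10 were listed in Dicer and 6 in Drosha, and they summed to 7.06% of the Dicer values and 1.57% of the Drosha values, with 7.00% in control. Of the 6 in both, 5 were at least 2-fold higher in Dicer, against 46.5% of all entries, and 4 were more than 2-fold above the median entry, against 12.7%. Scaled to the entries outside the special lists, the list median was 0.85, with miR-155 at 1.38, miR-21 at 1.37, miR-146a at 0.89, miR-221 at 0.82, miR-210 at 0.15 and miR-146b at -1.09. miR-155 had 9836 in Dicer and 1711 in Drosha, with 4260 in control, a ratio of 5.75 (3.12 to 11.4). miR-21 had 15000 and 2632, with 8860 in control, a ratio of 5.70 (3.49 to 9.76). miR-146a had 23115 and 5658, with 14220 in control, a ratio of 4.09 (2.89 to 5.89). For these 3 the control value as deposited lay between the Dicer and Drosha values. As a share of the entries outside the special lists, control was instead the lowest of the libraries for each. miR-155 took 2.07% in Dicer, 0.794% in Drosha and 0.462% in control. The shares in the same order were 3.16%, 1.22% and 0.961% for miR-21 and 4.86%, 2.63% and 1.54% for miR-146a.

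The other members of that list were weaker or rested on fewer reads. miR-221 had 3065 in Dicer and 789 in Drosha, a ratio of 3.88 (1.49 to 11.9), and miR-210, a miRNA of the hypoxia response, had 6774 and 2763, a ratio of 2.45 (1.42 to 4.36). miR-146b had 820 and 789, on 5 and 6 implied reads, a ratio of 1.04 (0.251 to 4.08). miR-31 (1613), miR-182 (1290), miR-183 (968) and miR-96 (645) were listed in Dicer only. The last 3 share a cluster on chromosome 6. As deposited, the bounds of miR-31, miR-182, miR-183 and miR-96 were at least 3.07-fold, 2.45-fold, 1.84-fold and 1.23-fold higher in Dicer. As shares of the entries outside the special lists, they took 0.339%, 0.271%, 0.204% and 0.136% in Dicer. An entry at the Drosha floor took 0.244%. On this scale miR-31 and miR-182 were less than 2-fold above that floor, and miR-183 and miR-96 have no bound.

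miR-674, miR-185, miR-15a, miR-342-5p and miR-19b were also among the 12 highest. miR-185 had 2903 in Dicer and 658 in Drosha, with 10290 in control, and miR-674 had 2419 and 526, with 1790 in control. Their ratios of 4.41 and 4.60 rest on 5 and 4 implied reads in Drosha, with intervals of 1.58 to 15.2 and 1.46 to 19.0. miR-15a, of the miR-15/16 family that restrains cell cycle genes, had 1803 and 526. miR-19b, of the miR-17~92 cluster, had 5645 and 1842.

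**Figure D4:**
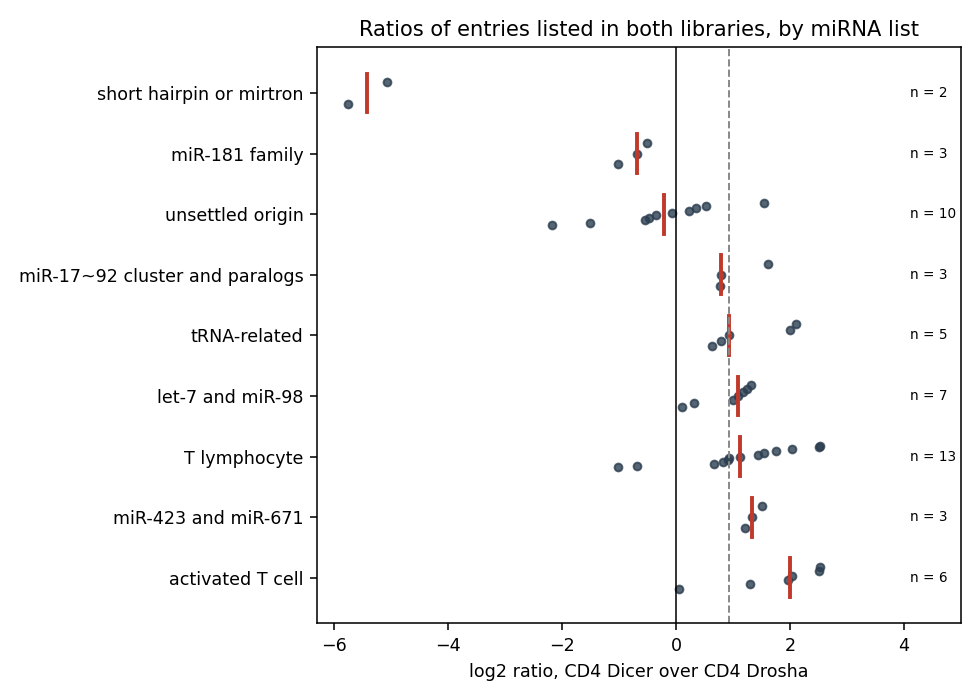
log2 ratios of CD4 Dicer over CD4 Drosha for entries listed in both libraries, by miRNA list; points are entries, red bars list medians, and the dashed line is the median of 0.92 over all 71. The miR-181 family lies wholly below 0, and the activated T cell list has a median of 1.99.

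Of the abundant entries, miR-22, miR-142-3p and miR-191 were higher in Dicer as deposited, while miR-689, miR-709, miR-181a, miR-320 and miR-484 were lower. Scaled to the entries outside the special lists, miR-142-3p was at a log2 ratio of 0.40, miR-22 at -0.11 and miR-191 at -0.022. miR-22 had 127581 in Dicer and 62368 in Drosha, with 152800 in control, a ratio of 2.05 (1.82 to 2.30). miR-142-3p, a miRNA of blood cells, had 35738 and 12237, with 51110 in control, a ratio of 2.92 (2.28 to 3.76). miR-191 had 26290 and 12105, with 36150 in control, a ratio of 2.17 (1.67 to 2.84), and its cluster mate miR-425 had 4194 and 1842. In each of these the Dicer value as deposited was the nearer to control. As shares of the entries outside the special lists, the Dicer, Drosha and control values were 26.8%, 28.9% and 16.6% for miR-22. In the same order they were 7.52%, 5.68% and 5.55% for miR-142-3p, and 5.53%, 5.62% and 3.92% for miR-191. For miR-425 they were 0.882%, 0.855% and 0.723%. On this scale Drosha was the nearer to control for miR-142-3p and miR-425.

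Several miRNAs that were abundant in control had lower values in both deletion libraries than in control. miR-423-5p had 30161 in Dicer and 10658 in Drosha, with 102210 in control, and its partner strand miR-423-3p had 7258 and 2895, with 45400 in control. miR-671-5p had 7258 and 3158, with 26670 in control. miR-296-3p, of the imprinted Gnas region, had 3710 and 1316, with 36840 in control, and its neighbour miR-298 had 968 and 789, with 12560 in control. miR-296-3p was thus 0.101-fold of control in Dicer and 0.0357-fold in Drosha. The log2 ratios of Dicer over Drosha were 1.50 for miR-296-3p and 0.29 for miR-298, the last on 6 implied reads in each library.

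The let-7 family, whose members share the seed GAGGUAG, was higher in Dicer in 7 of 7 members listed in both, against 59 of all 71 entries. Its median log2 ratio was 1.08 as deposited and -0.059 when scaled to the entries outside the special lists. let-7i, the most abundant, had 13443 in Dicer and 5658 in Drosha, with 39820 in control. Of the 7, 4 were at least 2-fold higher, from let-7g at 1.08 to let-7d at 1.32, a share near the 46.5% of all entries. let-7f, at 984 and 921, and let-7a, at 2623 and 2105, were the nearest to equal. The miR-17~92 cluster and its paralogs had 7 of 13 members listed in Dicer and 3 in Drosha, while all 13 were listed in control. Of all 111 entries, 97 were listed in Dicer and 85 in Drosha. The 3 cluster members in both had a median of 0.78 as deposited, which is below the median entry. miR-93 led with 10323 in Dicer, 6053 in Drosha and 57880 in control. miR-20a (1129), miR-25 (1129), miR-19a (968) and miR-17 (820) were listed in Dicer only. As shares of the entries outside the special lists, they took 0.172 to 0.237% in Dicer. An entry at the Drosha floor took 0.244%, so on this scale their absence from Drosha does not show a lower level there.

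Entries listed in 1 library only reached values several times the floors. The 26 in Dicer only ran from 645 to 4677 and took 3.40% of that library, and 10 of them were at least 2-fold above the Drosha floor. These 10 were miR-21* (4677), miR-29a* (1935), miR-15b (1803), miR-27a* (1613), miR-31 (1613), miR-182 (1290), miR-1946b (1290) and, at 1129 each, miR-1939, miR-20a and miR-25. The 14 in Drosha only ran from 526 to 4605 and took 2.05% of that library, and 4 were at least 2-fold above the Dicer floor. Those 4 were miR-1983, miR-877*, miR-1839-5p and miR-128 (1316). miR-128, a miRNA of developing thymocytes and brain with 2 gene copies, was the only one of these 4 outside the special lists, and its bound of 2.04-fold rests on 10 implied reads. These counts are as deposited. As shares of the entries outside the special lists, the Drosha floor was 0.244% and the Dicer floor 0.136%. Of the 10, only miR-21*, at 0.984%, was at least 2-fold above the Drosha floor, and the others took 0.237 to 0.407%. In Drosha only, miR-128 (0.611%), miR-706 (0.366%) and miR-703 (0.305%) were at least 2-fold above the Dicer floor.

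Both strands of a hairpin were listed for 12 hairpins, and both strands in both libraries for 4. The strands of miR-423 stood at 4.16 to 1 (5p over 3p) in Dicer and 3.68 to 1 in Drosha, against 2.25 to 1 in control. Those of miR-142 (3p over 5p) stood at 8.39 to 1 in Dicer and 5.47 to 1 in Drosha, against 10.1 to 1 in control. Those of miR-342 (3p over 5p) stood at 1.77 in Dicer and 3.75 in Drosha, against 2.78 in control. miR-21* had 4677 in Dicer and lay below the Drosha floor, with 7350 in control, so that both strands of miR-21 were higher in Dicer. miR-501-5p (806) was listed in Dicer only and miR-501-3p (526) in Drosha only, on 5 and 4 implied reads.

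The same contrast was set beside the fibroblast libraries, whose lists have the same form. Of the 71 entries, 64 had a ratio in both cell types. Among the 51 outside the special lists, as deposited, 48 were higher in Dicer in CD4 and 40 in MEF. Of these 51, 38 were higher in both, 10 in CD4 only and 2 in MEF only. With 48 of 51 higher in CD4, the 38 in both say little beyond the 40 in MEF. miR-320 and miR-484 were lower in Dicer in both. As deposited, the tRNA-related entries with both ratios were higher in Dicer in 5 of 5 in CD4 and lower in 5 of 5 in MEF. Their median log2 ratios were 0.92 and -3.13, and the CD4 median was -0.22 when scaled to the entries outside the special lists. miR-1983, without a CD4 ratio, was lower in Dicer in both: at least 7.14-fold in CD4, and 203 against 1667 in MEF. The 6 unsettled entries were lower in 4 of 6 in CD4 and in 6 of 6 in MEF, against 9 and 24 of all 64. miR-689 had 67 in MEF Dicer and 6240 in MEF Drosha. The 2 cell types were not tested against each other, since each ratio has 1 library a side.

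miRNAs that stood apart in CD4 did not all do so elsewhere. miR-7a was higher in Dicer in the other 3 cell types too, with 2092 in Dicer and 39 in Drosha in MEF, 1071 and 653 in regulatory T cells and 441 and 342 in DN3 thymocytes. miR-155 had 7208 and 6781 in regulatory T cells, 2287 and 2883 in DN3 and 59 and 78 in MEF. miR-21 had 294500 and 275990 in regulatory T cells, 64371 and 64938 in DN3 and 8492 and 6034 in MEF. miR-155 and miR-21 thus differed less than 2-fold in regulatory T cells, DN3 and MEF. In that order the log2 ratios were 0.088, -0.33 and -0.40 for miR-155 and 0.094, -0.013 and 0.49 for miR-21. The miR-7a differences in regulatory T cells and DN3 were also below 2-fold.

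miR-181a was lower in Dicer in both other T-lineage types, with 11488 in Dicer and 59531 in Drosha in regulatory T cells and 98040 and 163745 in DN3, whereas the MEF values were 6303 and 6253. miR-128, missing from the CD4 Dicer list, had 794 in Dicer and 4471 in Drosha in regulatory T cells, but 39830 and 37180 in DN3. The short hairpin miR-320 had 564 in Dicer and 2950 in Drosha in regulatory T cells and 1087 and 6193 in DN3. miR-484 had 1127 and 11746 in regulatory T cells, but 813 and 940 in DN3, a difference below 2-fold. The regulatory T cell and DN3 lists have another form, with values summed over distinct sequences, so these values are set beside the CD4 values only for their direction.

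**Figure D5:**
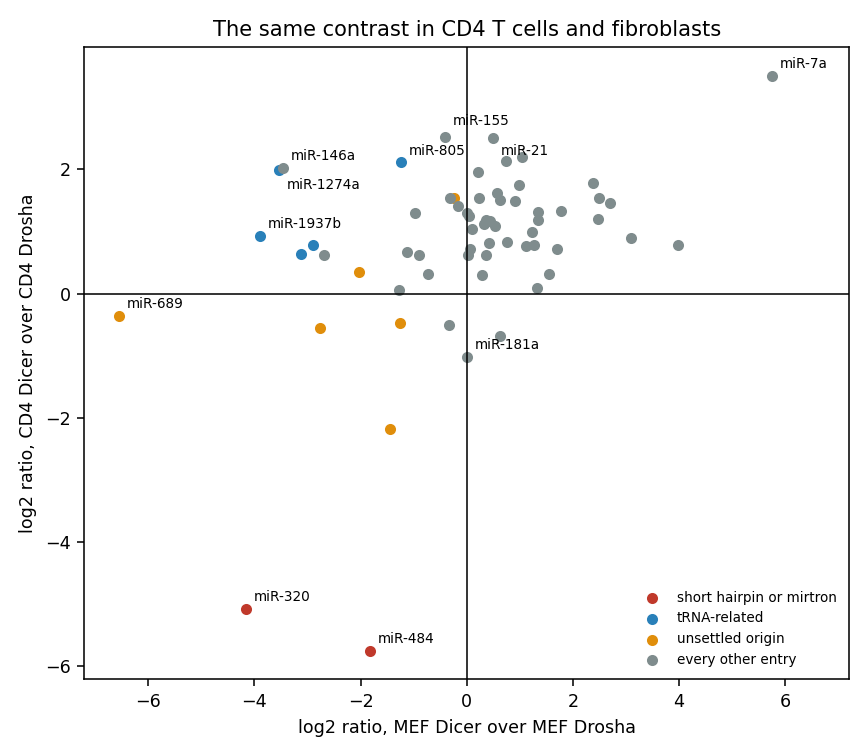
log2 ratio of Dicer over Drosha in CD4 T cells (y axis) against embryonic fibroblasts (x axis) for the 64 entries with a ratio in both, values as deposited, coloured by kind of entry. Both short hairpins lie in the lower left, all 5 tRNA-related entries in the upper left, and miR-7a at the upper right.

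RefSeq held a mature sequence for 78 of the 111 entries. The 28 with a ratio at least 2-fold higher in Dicer had a median length of 22 nt and a median GC content of 45.5%, and 14 began with U. The 18 between the limits had the same medians, and 11 began with U. The 3 at least 2-fold lower, miR-484, miR-1195 and miR-181a, had a median length of 23 nt and a median GC content of 60.9%. Sequences of the 18 matched entries listed in Dicer only had a median GC content of 47.7%, and those of the 11 listed in Drosha only 47.6%.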

How the data were processed

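Each of the 4 cell types has a Dicer, a Drosha and a control library. Per the labels, adaptors were clipped and reads mapped to miRNA loci; the sources used here name no aligner, genome build or miRBase release. The deposited values are treated as a score: the headers of the CD4 files call them normalized, and they are whole numbers that sum to 893850 for CD4 Dicer, 911314 for CD4 Drosha and 1002350 for CD4 control, so that they resemble per-library normalised shares rounded to whole numbers. Groups were taken from sample titles.

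Values were used as deposited, with no pseudocount. In both deletion lists, values under 4000 were compared with whole multiples of the worth of 1 read, within 0.6. For Drosha the step of a total of 7600 reads made 64 of 64 whole. For Dicer 1 step, as first planned, made 43 of 65 whole; 6100 reads up to miR-181b and 6200 after it made 22 of 22 and 43 of 43 whole, so both were used for implied reads and intervals. The control step of 10 may be rounding, so no interval is given for it.

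The members, lists and naming rule were chosen with earlier results of these data known. Named are the 10 most abundant entries of each library, the 12 lowest and 12 highest ratios, the 8 most abundant of each list alone with ties, members of set lists and hairpins with both strands; other entries named were chosen after their values were seen. A star strand counts with its hairpin in the special lists. Values of the regulatory T cell and DN3 lists were summed over the sequences of a name. Gene overlap is from GENCODE (GRCm38). Read steps and intervals were tested on simulated data. Other scalings, a pseudocount, a filter, floors and fold limits were tried. Python 3.11.15, pandas 2.3.3 and scipy 1.17.1 were used.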

Additional observations from a re-analysis of the deposited data

Results flagged for a closer look

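In 3 entries the CD4 ratio and the fibroblast ratio of Dicer over Drosha lay at least 2-fold apart from equality in opposite directions; this difference was not tested, since each ratio has 1 library a side. miR-146a had a log2 ratio of 2.03 in CD4 and -3.47 in MEF, where its values were 126 in Dicer and 1395 in Drosha, and in regulatory T cells it had 24622 in Dicer and 25115 in Drosha. miR-805 had 2.11 in CD4 and -1.23 in MEF, where it had 578 in Dicer and 1357 in Drosha; in regulatory T cells it had 45 and 349 and in DN3 238 and 126. miR-1274a had 1.995 in CD4, on 5 implied reads in Drosha, and -3.54 in MEF, where it had 119 in Dicer and 1382 in Drosha.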

How the results depend on the processing

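Counts of entries past 2-fold depended on the scaling. Relative to the median entry, 12 were lower and 9 higher in Dicer, against 5 and 33 as deposited. Without the 2 most abundant entries of either list in the totals 19 were higher, without miR-320 and miR-484 21 were, and with totals of the entries outside the special lists 14 were lower and 5 higher, with a median of -0.22; the last 2 scalings were added after the data were seen. Under that last scaling miR-22 was at -0.11 and miR-191 at -0.022, and of the 15 lists with a median above 0 as deposited 10 had one below 0: let-7 (-0.059), T lymphocyte (-0.022), miR-30 (-0.063), tRNA-related (-0.22), miR-17~92 (-0.36), miR-26 and miR-101 (-0.32), miR-103 and miR-107 (-0.52), miR-296 and miR-298 (-0.25), myeloid (-0.33) and fibroblast (-0.47). Relative to the median entry, 6 of the 15 had one below 0. With a mean of at least 4 times the larger floor, which tests fewer entries, 19 were higher, and 9 were lower where a missing value was set to its floor. At 4-fold, 3 were lower and 7 higher, and 3 and 7 had an interval wholly past 2-fold. With a bound at 4 times the floor, 1 entry of Dicer only and 0 of Drosha only were past 2-fold. Over the alternatives run, the log2 ratio ranged from -6.90 to -5.54 for miR-484, from -6.22 to -4.99 for miR-320, from -2.16 to -0.99 for miR-181a and from 2.36 to 3.53 for miR-7a. Of the 71 entries, 31 had fewer than 10 implied reads in a library, and 31 had an interval that includes equal levels. No paired analysis was possible because each group has 1 library, and no library could be left out for the same reason.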

Other observations

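Of the 111 entries, 7 were absent from the control list, whose floor is 20. miR-1940 was listed in both deletion libraries, at 645 in Dicer and 1053 in Drosha. miR-1939 (1129) and miR-1951 (645) were listed in Dicer only, and miR-703 (658), miR-466f-3p, miR-685 and miR-1982* (526 each) in Drosha only. In the cluster of let-7d, let-7f and let-7a on chromosome 13 the log2 ratios were 1.32, 0.10 and 0.32, on 6 to 16 implied reads. Their intervals overlap (-0.088 to 2.87, -1.75 to 1.89 and -0.78 to 1.41), so a difference within the cluster is not shown. let-7f also has a copy on chromosome X, which its value does not set apart. The clustered miR-191 and miR-425 on chromosome 9 were at 1.12 and 1.19. miR-1944, which none of the special lists holds, had 12903 in Dicer and 8421 in Drosha, with 1080 in control.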
